A study of Mus musculus with 4 samples.

Results

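The 7 genes described here encode the costimulatory and coinhibitory receptors Cd28, Icos, Ctla4, Pdcd1, Lag3, Havcr2 and Tigit, taken by name from a table of 25724 gene symbols. They were measured in CD4 T cells of the mouse colon by inDrops, a droplet method for single-cell RNA. The lamina propria is the connective tissue under the gut epithelium, and live cells from it were taken by flow cytometry as TCRb+ CD4+ cells within CD45+ cells. The 4 samples form 1 group, labelled Btheta_colon, and all came from male B6 mice aged 6 weeks. They share 1 library name and 1 table whose barcodes carry no sample, so the table was treated as 1 sample, no p-value is given, and intervals cover counting error only, not the spread between cells or mice. Of 1985 barcodes, 1050 had at least 500 counts, at least 200 detected genes and under 20% mitochondrial counts, and these are called cells. They held 501 to 13023 counts each, with a median of 1235.5, and no barcode occurred more than once. Trbc2, a T cell receptor gene, was found in 734 cells (69.9%) and Cd4 in 409 cells (39.0%). Of the CD8 genes, Cd8a was found in 1 cell and Cd8b1 in 21 cells (2%). The epithelial marker Muc2 was found in 21 cells, the stromal marker Sparc in 16 and the myeloid marker H2-Aa in 13.

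T cells need a second signal beside their antigen receptor. Cd28 delivers it on binding CD80 or CD86, and Icos, a related receptor induced after activation, delivers another through ICOS ligand. Ctla4 binds the same ligands as Cd28 and restrains T cells, and regulatory T cells depend on it. Pdcd1 (PD-1), Lag3, Havcr2 (TIM-3) and Tigit are further inhibitory receptors found on activated T cells, on exhausted T cells and on some regulatory T cells. In the gut, regulatory T cells carry the transcription factor Foxp3 and many also carry Gata3, a factor best known from type 2 helper cells, while the cytokine Il10 is made both by Foxp3+ cells and by Foxp3- cells known as type 1 regulatory cells. Cells were therefore gated by at least 1 count of Foxp3, Gata3 or Il10.

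In the mm10 build with GENCODE vM21 annotation, 3 of the receptor genes lie side by side on the plus strand of chromosome 1. Cd28 spans chr1:60716800-60773359, Ctla4 chr1:60887000-60915832 and Icos chr1:60977927-61000320, with 113640 bases between Cd28 and Ctla4 and 62094 bases between Ctla4 and Icos. Pdcd1 lies farther along the same chromosome on the minus strand, at chr1:94038305-94052553. Lag3 is at chr6:124904361-124911705 on the minus strand, Havcr2 at chr11:46454935-46481255 on the plus strand and Tigit at chr16:43648867-43664146 on the minus strand. The 250 bases before the RefSeq start site (GRCm38.p6) are given for Ctla4, whose level differed most widely between the gates among the often detected receptors, and for Pdcd1, which was found mostly in Gata3+ cells. Ctla4 is given from chr1:60908775-60909024 on the plus strand, which lies inside the annotated gene because a longer transcript starts farther upstream, and Pdcd1 from chr1:94052554-94052803 on the minus strand. Capitals mark matches to GGAAA, the core letters bound by NFAT, a factor activated by T cell receptor signalling, here read as TTTCC on the other strand.
Ctla4: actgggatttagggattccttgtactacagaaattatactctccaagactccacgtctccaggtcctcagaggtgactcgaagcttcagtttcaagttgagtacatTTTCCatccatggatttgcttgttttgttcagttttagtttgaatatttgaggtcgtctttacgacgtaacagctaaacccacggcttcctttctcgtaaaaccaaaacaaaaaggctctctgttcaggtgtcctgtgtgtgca
Pdcd1: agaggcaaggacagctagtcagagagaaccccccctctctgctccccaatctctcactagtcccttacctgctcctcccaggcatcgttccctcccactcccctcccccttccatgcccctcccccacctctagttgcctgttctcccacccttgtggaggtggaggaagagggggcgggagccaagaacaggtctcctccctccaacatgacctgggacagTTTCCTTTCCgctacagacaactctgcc
Both strands were searched for 4 motifs, and GGAAA occurred in 55.6% of all 32851 RefSeq windows of this length. Ctla4 had 1 match, Tigit 2 and Pdcd1 2, and the pair in Pdcd1 lies close to the start site. The forkhead letters TGTTTAC, found in 3.17% of all windows, had no match in Ctla4, Pdcd1, Havcr2 or Tigit. The GATA letters GATAA, in 22.6% of all windows, occurred once, in Tigit, and the AP-1 letters TGANTCA, in 6.75%, once, in Havcr2. These matches describe the letters of the windows and not binding.

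The receptors fell into an often detected set and a rarely detected set. Icos was found in 632 of 1050 cells (60.2%, Clopper-Pearson 95% interval 57.2 to 63.2), Ctla4 in 552 cells (52.6%, 49.5 to 55.6) and Cd28 in 542 cells (51.6%, 48.5 to 54.7). Lag3 was found in 43 cells (4.10%), Pdcd1 in 36 cells (3.43%), Havcr2 in 21 cells (2%) and Tigit in 13 cells (1.24%). The summed counts behind these shares were 2059 for Icos, 1919 for Ctla4, 1302 for Cd28, 54 for Lag3, 45 for Pdcd1, 32 for Havcr2 and 21 for Tigit. Thinning every cell to 500 random counts lowers the expected shares to 39.8% for Icos, 35.9% for Ctla4 and 29.6% for Cd28, and to at most 1.69% for each of the other 4 receptors. Read numbers depend on transcript capture as well as on level, so levels were compared only within a gene.

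Shares in cells that should hold little of these transcripts were low for Icos and Ctla4. Among 60 cells with at least 2 naive-cell genes and no Foxp3, Gata3 or Il10 (median 1234 counts), Icos was found in 6.67%, Ctla4 in 13.3% and Pdcd1 in 1.67%. Cd28, which naive T cells also carry, was found in 33.3% of them. Lag3, Havcr2 and Tigit were found in 0 of 60 such cells, which allows a share of up to 5% each. That limit is above their shares in all cells (4.10% for Lag3, 2% for Havcr2, 1.24% for Tigit), so it cannot show a lower share. In 7 cells with at least 3 epithelial markers (median 7500 counts), 2 had a count of Cd28 and none had any of the other 6 receptors. Havcr2 is also carried by myeloid cells. A T cell receptor transcript was found in 100% of the 21 cells with Havcr2 and 93.2% of the cells without it, and a myeloid marker in 1 of the 21 (4.76%) and 2.62% of the cells without it. The part of myeloid RNA in Havcr2 was not tested.

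Foxp3 was detected in 332 cells, and Icos, Ctla4 and Lag3 were higher in them than in the 718 cells without Foxp3. Icos was detected in 78.6% of Foxp3+ cells and 51.7% of Foxp3- cells, and Ctla4 in 75.9% of Foxp3+ cells and 41.8% of Foxp3- cells. Lag3 was detected in 25 Foxp3+ cells (7.53%, 4.93 to 10.9) and 18 Foxp3- cells (2.51%, 1.49 to 3.93). With thinning to 500 counts the expected shares in Foxp3+ cells were 55.5% for Icos, 52.4% for Ctla4 and 3.21% for Lag3. In Foxp3- cells they were 32.5% for Icos, 28.2% for Ctla4 and 0.978% for Lag3. The intervals of the unthinned shares did not overlap for these 3 receptors.

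A gene was called higher when its summed level, in CPM (counts scaled to a total of 1000000), was at least 1.5-fold higher and the exact 95% interval of the log2 ratio lay above 0, among genes with at least 50 counts. By this rule 3 of the 7 receptors were higher in Foxp3+ cells, where 7.9% of 4787 genes were called higher, and none was lower, where 7.25% of the genes were. The log2 ratios were 0.90 for Icos (0.77 to 1.02), 1.05 for Ctla4 (0.92 to 1.18) and 1.77 for Lag3 (0.93 to 2.65). Cd28 was at 933 CPM in Foxp3+ cells and 795 CPM in Foxp3- cells, a log2 ratio of 0.23 (0.07 to 0.40). Without 1 cell that held 30 Cd28 counts, left out after the values were seen, it was 0.14 (-0.03 to 0.31). Pdcd1, Havcr2 and Tigit had fewer than 50 counts, with 21, 19 and 15 counts in Foxp3+ cells and 24, 13 and 6 counts in Foxp3- cells. Their log2 ratios were 0.81 for Pdcd1 (-0.10 to 1.72), 1.55 for Havcr2 (0.46 to 2.69) and 2.33 for Tigit (0.88 to 3.98), and 7 of the 15 Tigit counts in Foxp3+ cells came from 1 cell. The median over the 7 receptors was 1.05, against 0.01 over all genes tested. When a gene was counted once per cell at most, Ctla4 remained above 1.5-fold at 0.74, Icos was at 0.48, Lag3 was at 1.46 on fewer than 50 counts, and Tigit was at 1.21 (-0.58 to 3.06). With Foxp3 itself set on counts thinned to 500, 1 receptor was called higher.

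**Figure D1:**
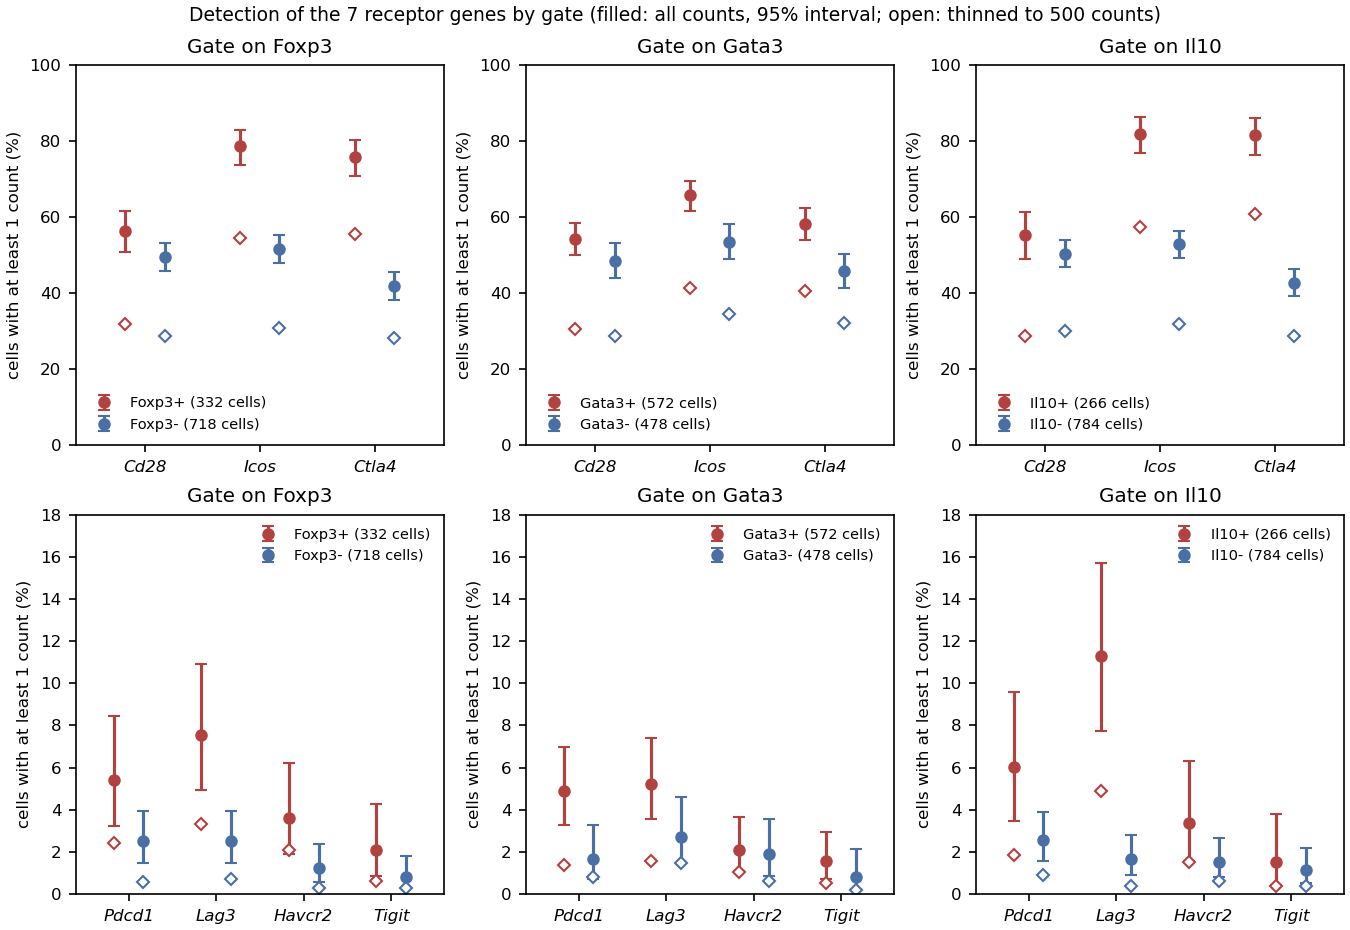
Share of cells with at least 1 count of each receptor gene (y axis, percent) in cells with and without Foxp3, Gata3 or Il10, with the frequent receptors in the upper row and the rare ones in the lower row. Filled points with Clopper-Pearson 95% intervals use all counts and open diamonds 1 random draw of 500 counts per cell. With all counts, Icos and Ctla4 stand apart in the Foxp3, Gata3 and Il10 panels, and Icos was found in 82.0% of Il10+ and 52.8% of Il10- cells. In the Gata3 panel the shares lie closer at 500 counts, where those expected for Icos were 42.0% in Gata3+ and 37.2% in Gata3- cells.

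Il10 was detected in 266 cells, of which 146 also had Foxp3. Icos was found in 82.0% of Il10+ cells and 52.8% of Il10- cells, and Ctla4 in 81.6% of Il10+ cells and 42.7% of Il10- cells. Their levels were 2103 CPM in Il10+ and 1057 CPM in Il10- cells for Icos (log2 ratio 0.99, 0.86 to 1.12) and 2291 CPM in Il10+ and 868 CPM in Il10- cells for Ctla4 (1.40, 1.27 to 1.53). Lag3, a receptor that binds MHC class II, was at 96.6 CPM in Il10+ cells and 13.1 CPM in Il10- cells. That is a log2 ratio of 2.88 (1.99 to 3.85) from 39 counts in Il10+ and 15 in Il10- cells, and 30 of the 43 cells with Lag3 had Il10 (69.8%, 53.9 to 82.8), against 23.4% of the cells without Lag3. These 3 receptors were the ones called higher of the 7, where 8.65% of 4787 genes were called higher, and none was called lower, where 8.25% were. Cd28 differed less, at 966 CPM in Il10+ and 796 CPM in Il10- cells (0.28, 0.10 to 0.45), and the ratio was 0.17 (-0.01 to 0.35) without the cell that held 30 Cd28 counts. Pdcd1, with 18 counts in Il10+ and 27 in Il10- cells, had a log2 ratio of 0.92 (-0.03 to 1.83). Havcr2, with 12 counts in Il10+ and 20 in Il10- cells, had one of 0.77 (-0.40 to 1.87), so both intervals include 0. Tigit had 11 counts in Il10+ cells, 7 of them in 1 cell, and 10 counts in Il10- cells. Counted once per cell at most, Ctla4 was at 0.84, Icos at 0.54 and Lag3 at 2.67 on fewer than 50 counts. Il10+ cells were slightly deeper, with a median of 1314 counts against 1212 in Il10- cells, and at 500 counts the expected shares of Ctla4 were 59.3% in Il10+ and 27.9% in Il10- cells.

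Il10+ and Il10- cells were then compared separately without and with Foxp3. Within Foxp3- cells, 120 had Il10 and 598 did not, and Ctla4 was at 2294 CPM in the Il10+ and 635 CPM in the Il10- cells (log2 ratio 1.85, 1.66 to 2.04). Icos was at 2103 CPM in these Il10+ cells and 818 CPM in these Il10- cells (1.36, 1.18 to 1.55). Both were called higher, where 9.95% of 3468 genes were, and no receptor lower, where 7.84% were. Lag3 had 16 counts in the 120 Il10+ cells (92.2 CPM) and 4 counts in the 598 Il10- cells (4.65 CPM), a log2 ratio of 4.31 (2.68 to 6.35) that rests on 20 counts. Within Foxp3+ cells, Ctla4 was at 2289 CPM in the 146 Il10+ cells and 1571 CPM in the 186 Il10- cells (0.54, 0.36 to 0.73), and Icos at 2102 CPM in the Il10+ and 1779 CPM in the Il10- cells (0.24, 0.06 to 0.42). None of the 7 receptors was called higher there, where 6.99% of 1789 genes were, or lower, where 5.09% were. Within Foxp3+ cells, as within Foxp3- cells, only 3 of the 7 receptors had the 50 counts needed for a call. Below that minimum, Lag3 had 23 counts in Il10+ Foxp3+ cells (99.9 CPM) and 11 in Il10- Foxp3+ cells (38.7 CPM). Its log2 ratio was 1.37 (0.27 to 2.55), while Havcr2 went the other way at -0.47 (-2.06 to 0.99). The intervals of the ratios within Foxp3- cells and within Foxp3+ cells do not overlap for Ctla4 or for Icos, but the difference between the ratios was not itself tested.

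Read the other way, Il10+ cells with and without Foxp3 had nearly the same levels of Ctla4, Icos and Lag3. This comparison, and the one within Il10- cells, was added after the values were seen. Within Il10+ cells the log2 ratio of Foxp3+ to Foxp3- cells was -0.00 for Ctla4 (-0.19 to 0.19), -0.00 for Icos (-0.20 to 0.20) and 0.12 for Lag3 (-0.87 to 1.13). No receptor was called higher, where 5.71% of 1384 genes were. The intervals leave out a 1.5-fold difference for Ctla4 and Icos, and not for Lag3, which had 23 counts in Foxp3+ and 16 in Foxp3- cells. Within Il10- cells, Ctla4 was at 1571 CPM in 186 Foxp3+ cells and 635 CPM in 598 Foxp3- cells (1.31, 1.12 to 1.49). Icos was at 1779 CPM in the Foxp3+ and 818 CPM in the Foxp3- cells there (1.12, 0.95 to 1.29), and these were the 2 receptors called higher, where 8.47% of 3779 genes were. Below the minimum of 50 counts, Lag3 had 11 counts in Foxp3+ and 4 in Foxp3- cells (38.7 CPM in Foxp3+, 4.65 CPM in Foxp3- cells), a log2 ratio of 3.06 (1.30 to 5.16). Havcr2 had 12 counts in Foxp3+ and 8 in Foxp3- cells (2.18, 0.77 to 3.68). Within Il10+ cells Tigit had 10 counts in Foxp3+ cells, 7 of them in 1 cell, and 1 in Foxp3- cells.

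A cell without a Foxp3 count may still hold the transcript, since thinning to 500 counts left Foxp3 in 175 of the 332 cells. The Il10+ cells without Foxp3 also carried genes of regulatory T cells. The summed level of 12 such genes was 4858 CPM in Il10+ Foxp3- cells and 1916 CPM in Il10- Foxp3- cells, with 9 of 9 genes that had at least 50 counts called higher, where 9.95% of all genes were. This was not particular to Il10. The same genes summed to 3126 CPM in Gata3+ Foxp3- and 1594 CPM in Gata3- Foxp3- cells, with 8 of 9 called higher, where 8.16% of all genes were. Ikzf2, which encodes Helios, was at 951 CPM in Il10+ Foxp3+ and 599 CPM in Il10+ Foxp3- cells and was called higher in the Foxp3+ cells (0.67, 0.32 to 1.02). Tnfrsf4, which encodes the costimulatory receptor OX40, was at 895 CPM in Il10+ Foxp3+ and 836 CPM in Il10+ Foxp3- cells (0.10, -0.21 to 0.42). The part of missed Foxp3 counts in the receptor levels was not tested.

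**Figure D2:**
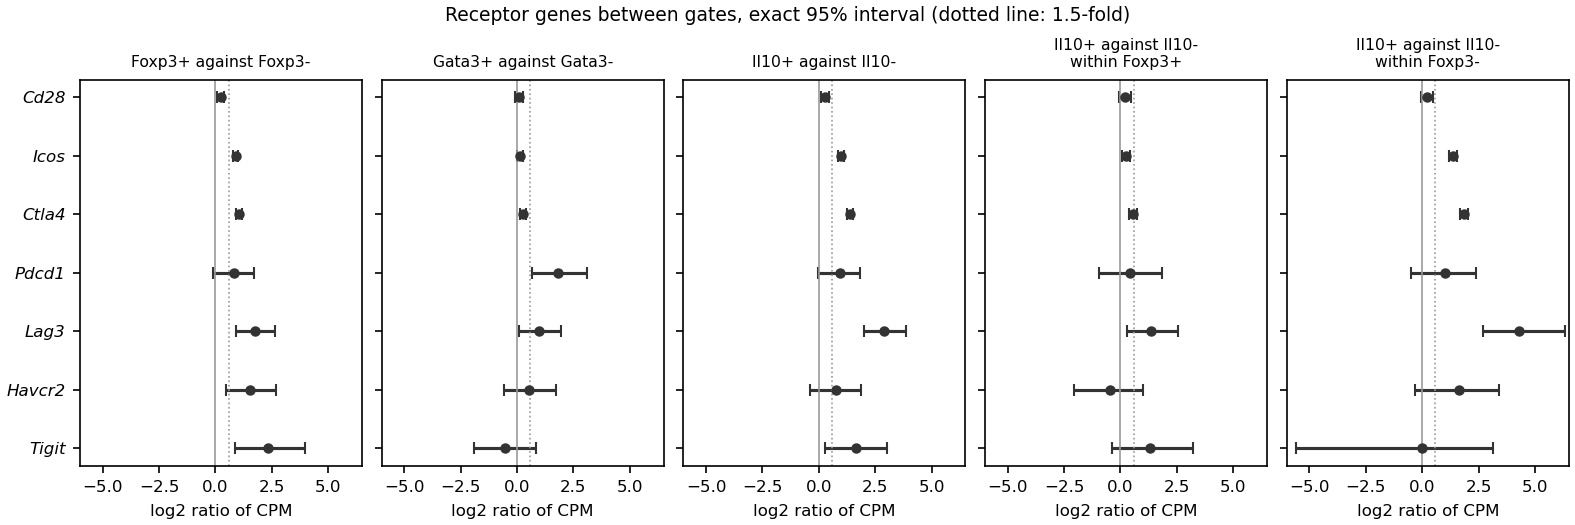
Log2 ratio of CPM (x axis) of the 7 receptor genes between positive and negative cells for 5 pairs of gates, with exact 95% intervals of counting error. The solid line marks 0 and the dotted line 1.5-fold. Ctla4 lies at 0.54 with Il10 within Foxp3+ cells and at 1.85 within Foxp3- cells.

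With all counts, Icos, Ctla4 and Pdcd1 were detected in a larger share of Gata3+ than of Gata3- cells. Icos was found in 65.7% of Gata3+ cells (61.7 to 69.6) and 53.6% of Gata3- cells (49.0 to 58.1). Ctla4 was found in 58.2% of Gata3+ cells (54.1 to 62.3) and 45.8% of Gata3- cells (41.3 to 50.4). Pdcd1, the receptor PD-1, was detected in 28 of 572 Gata3+ cells (4.90%, 3.28 to 7) and 8 of 478 Gata3- cells (1.67%, 0.73 to 3.27), so that its intervals only just part. Its level was 42.0 CPM in Gata3+ and 12 CPM in Gata3- cells, a log2 ratio of 1.81 (0.68 to 3.12) on 37 counts in Gata3+ and 8 in Gata3- cells, below the minimum for a call. The ratio was 1.73 within Foxp3+ cells (-0.04 to 4.14) and 1.74 within Foxp3- cells (0.27 to 3.52). Gata3+ cells were deeper, with a median of 1336 counts against 1161 in Gata3- cells. At 500 counts the expected share of Icos was 42.0% in Gata3+ and 37.2% in Gata3- cells. That of Ctla4 was 39.1% in Gata3+ and 31.9% in Gata3- cells, and that of Pdcd1 2.04% in Gata3+ and 0.757% in Gata3- cells. These expected shares carry no interval, so they do not show whether the gates stand apart at equal depth.

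Lag3 was at 44.2 CPM in Gata3+ and 22.5 CPM in Gata3- cells (0.98, 0.08 to 1.94), the 1 receptor of 7 called higher, where 7.14% of 4787 genes were, and none was lower, where 5.97% were. The 7 epithelial-marker cells lie on the Gata3- side and hold 53869 counts, and without them Lag3 was at 0.86 with an interval from -0.04. The call was lost under 9 of 12 alternatives. Ctla4 was at 1337 CPM in Gata3+ and 1109 CPM in Gata3- cells (0.27, 0.14 to 0.40), Icos at 1386 CPM in Gata3+ and 1254 CPM in Gata3- cells (0.14, 0.02 to 0.27), and Cd28 at 861 CPM in Gata3+ and 814 CPM in Gata3- cells (0.08, -0.08 to 0.24). Without the epithelial-marker cells Ctla4 was at 0.15 and Cd28 at -0.04. As a mean over cells Icos was at -0.04. Within Foxp3+ cells no receptor was called higher with Gata3, where 6.71% of 1789 genes were, or lower, where 6.37% were. Only 3 of the 7 had enough counts for a call there. Icos was there at 1800 CPM in Gata3+ and 2147 CPM in Gata3- cells (-0.25, -0.44 to -0.07). Within Foxp3- cells Icos was at 1137 CPM in Gata3+ and 916 CPM in Gata3- cells (0.31, 0.13 to 0.49), and Ctla4 at 1035 CPM in Gata3+ and 775 CPM in Gata3- cells (0.42, 0.23 to 0.61). Their lowest ratios under 12 alternatives were 0.05 for Icos, with gates set on thinned counts, and 0.06 for Ctla4, with thinned counts. No receptor was called higher with Gata3 within Foxp3- cells, where 8.16% of 3468 genes were, or lower, where 6.23% were. Here too only 3 of the 7 had enough counts. Tigit had 5 counts in Gata3+ Foxp3+ cells and 10 in Gata3- Foxp3+ cells.

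The 3 gates together gave 8 kinds of cell with 50 to 301 cells each. Ctla4 was highest in the 4 gates with Il10, at 2808 CPM in Foxp3- Gata3- Il10+, 2750 CPM in Foxp3+ Gata3- Il10+, 2082 CPM in Foxp3+ Gata3+ Il10+ and 2013 CPM in Foxp3- Gata3+ Il10+ cells. Next came the Foxp3+ gates without Il10, at 1614 CPM with Gata3 and 1506 CPM without it. The lowest were Foxp3- Gata3+ Il10- cells at 785 CPM and cells with none of the 3 gate genes at 480 CPM. The paired Il10+ gates with and without Foxp3 that share Gata3 status did not differ beyond their intervals, nor did the Foxp3+ Il10- gates with and without Gata3, while each of the other 4 steps in this order did.

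Icos followed a similar order, with 2694 CPM in Foxp3+ Gata3- Il10+ and 2629 CPM in Foxp3- Gata3- Il10+ cells at the top. The next 4 gates, all with Foxp3 or Il10, lay between 1765 and 1837 CPM and did not differ among themselves from one step to the next, while the steps above and below them did. Icos was at 963 CPM in Foxp3- Gata3+ Il10- cells and 667 CPM in cells with none of the gate genes. Cd28 ranged from 674 to 1319 CPM, and no gate differed from its neighbour in the order. The top value, in Foxp3+ Gata3- Il10+ cells, includes 30 counts from 1 cell, and without that cell it was 924 CPM, below the 1192 CPM of Foxp3- Gata3- Il10+ cells. Among Il10+ cells, the Gata3- gates were above the Gata3+ gates for both Ctla4 and Icos.

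Lag3 lay between 81.6 and 107 CPM in the 4 Il10+ gates, at 40.6 and 35.6 CPM in the Foxp3+ Il10- gates with and without Gata3, and at 9.13 CPM in Foxp3- Gata3+ Il10- cells, with 4 to 17 counts in each. It was found in 0 of 297 cells with none of the gate genes, which allows a level of up to 7.10 CPM. No neighbours in that order differed beyond their intervals where both had counts. Pdcd1 was found in 0 of 79 Foxp3+ Gata3- Il10- cells, which allows up to 26.7 CPM, and ranged to 58.1 CPM, from 10 counts, in Foxp3+ Gata3+ Il10- cells. Havcr2 ranged from 9.13 to 52.3 CPM on 2 to 9 counts a gate. Tigit had 9 counts in 2 of 52 Foxp3+ Gata3- Il10+ cells, 7 of them in 1 cell, and at most 4 counts in any other gate.

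**Figure D3:**
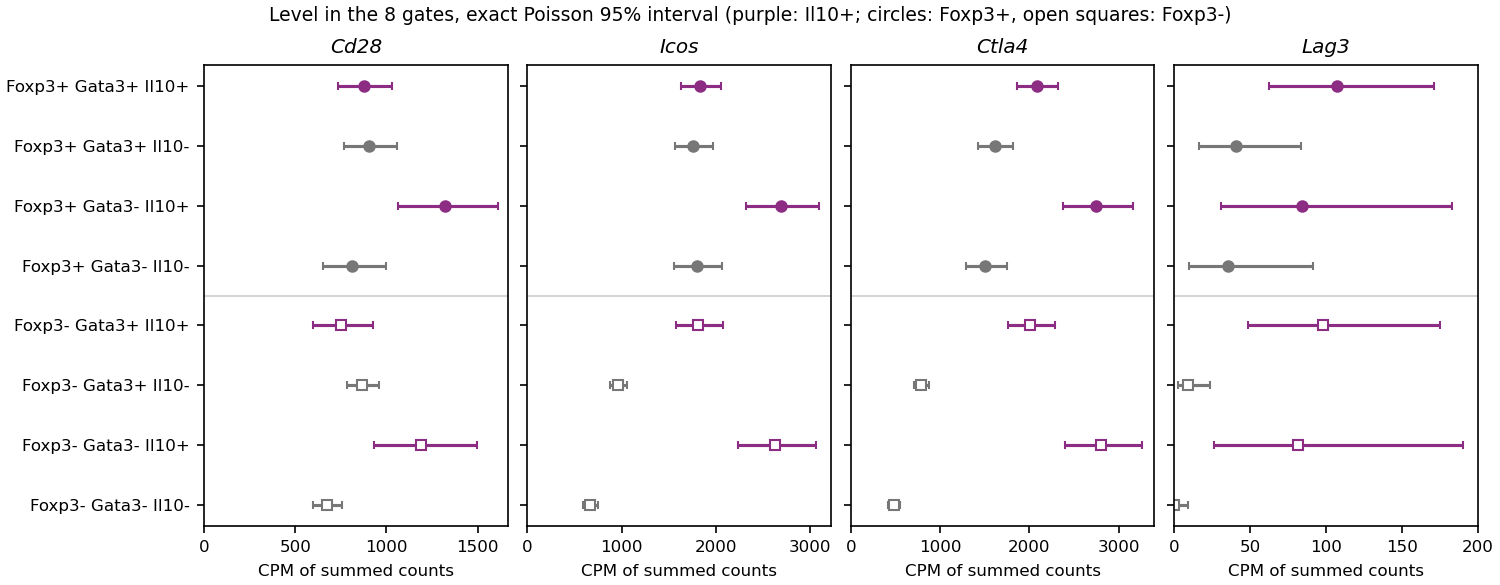
Level of Cd28, Icos, Ctla4 and Lag3 in CPM of summed counts (x axes) in the 8 gates, with exact Poisson 95% intervals. Circles are Foxp3+ and open squares Foxp3- gates, and purple marks Il10+ gates. The Il10+ gates of Ctla4 lie at 2013 to 2808 CPM with or without Foxp3, and Cd28 varies least.

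The balance of Ctla4 to Cd28, which share ligands, was set beside the gates as a ratio of counts within the same cells. It was 2.03 Ctla4 counts per Cd28 count in Foxp3+ cells (1.82 to 2.27) and 1.15 in Foxp3- cells (1.05 to 1.26). It was 2.37 in Il10+ cells (2.10 to 2.68) and 1.09 in Il10- cells (0.995 to 1.19), and 1.55 in Gata3+ and 1.36 in Gata3- cells. Across the 8 gates it ran from 0.712 in cells with none of the gate genes (0.592 to 0.856) to 2.69 in Foxp3- Gata3+ Il10+ cells. Without 1 cell that held 30 Cd28 counts, the ratio in Foxp3+ Gata3- Il10+ cells was 2.92 in place of 2.09, the highest of the 8 gates. The 4 Il10+ gates lay at 2.09 to 2.69, the Foxp3+ Il10- gates at 1.78 with Gata3 and 1.86 without it, and the gates with neither Foxp3 nor Il10 at 0.905 with Gata3 and 0.712 without it. The size of the ratio also depends on transcript capture, so only its differences between gates are read.

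Icos and Ctla4 were found together in 420 cells, where the product of their shares gives 332, a ratio of 1.26. Ctla4 was detected in 66.5% of Icos+ cells (62.6 to 70.1) and 31.6% of Icos- cells (27.1 to 36.3). After thinning to 500 counts the ratio was 1.39, and 1.30 to 1.43 over 10 further draws. The pair stood apart among Foxp3- cells, with Ctla4 in 57.4% of Icos+ and 25.1% of Icos- cells. Among Foxp3+ cells it was in 79.3% of Icos+ and 63.4% of Icos- cells, with overlapping intervals. Pearson's r between the log-scaled counts of Icos and Ctla4 was 0.36 over 1050 cells, which share a library and differ in depth.

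Cells with both Icos and Ctla4 made up 62.3% of Foxp3+ cells and 29.7% of Foxp3- cells. They made up 67.3% of Il10+ and 30.7% of Il10- cells, and 44.4% of Gata3+ and 34.7% of Gata3- cells. Thinned to 500 counts, the shares were 33.7% of Foxp3+ and 13.1% of Foxp3- cells, 37.2% of Il10+ and 13.6% of Il10- cells, and 21.5% of Gata3+ and 17.4% of Gata3- cells. Over the 8 gates the share with both ran from 17.5% in cells with none of the gate genes to 76.9% in Foxp3+ Gata3- Il10+ cells. Neither receptor was found in 3.76% of Il10+ and 35.2% of Il10- cells, and in 52.9% of cells with none of the gate genes. Cd28 without Icos or Ctla4, the pattern of 118 cells, was seen in 2.11% of Foxp3+ and 15.5% of Foxp3- cells.

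**Figure D4:**
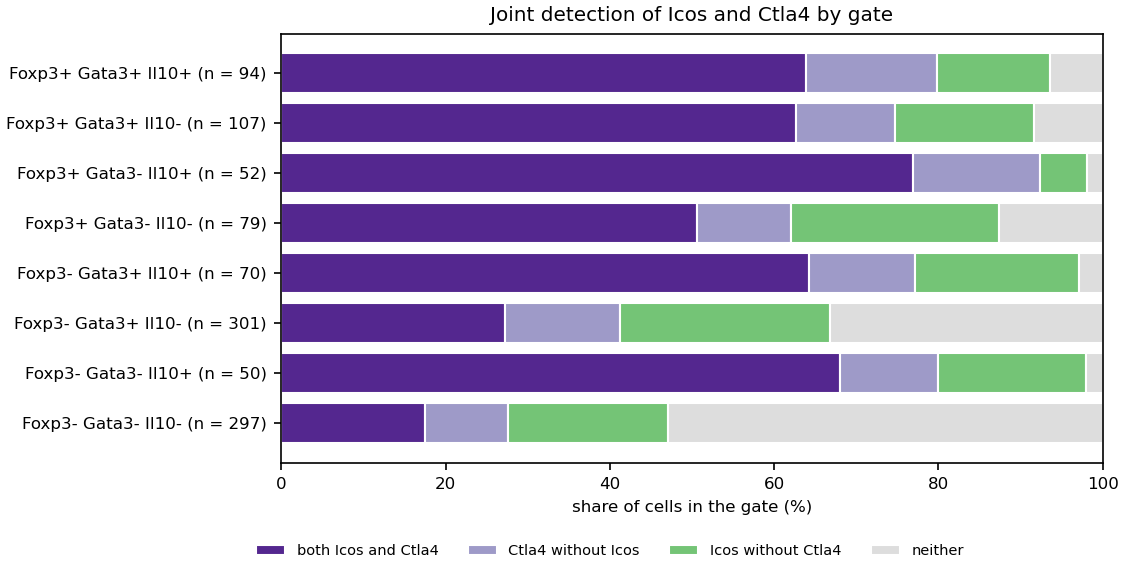
Share of cells (x axis, percent) with both Icos and Ctla4, Ctla4 alone, Icos alone or neither in each of the 8 gates, with the number of cells beside each gate. Bars add to all cells of the gate. Neither receptor was found in 52.9% of cells without Foxp3, Gata3 and Il10.

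Of the 21 pairs of receptors, 19 were found together in more cells than the product of their shares gives. After thinning to 500 counts it was 13 of 21, and unthinned within Foxp3+ cells 14 of 21. For 3 pairs, taking the receptors in the order Cd28, Icos, Ctla4, Pdcd1, Lag3, Havcr2, Tigit, the share with the later one was higher, with intervals apart, in cells with the earlier one. These were Icos with Ctla4, Cd28 with Icos and Ctla4 with Lag3. Read from the rarer receptor, Icos was in 79.1% of Lag3+ and 59.4% of Lag3- cells, and Ctla4 in 81.0% of Havcr2+ and 52.0% of Havcr2- cells, also with intervals apart. Deeper cells show more genes, and thinning left Cd28 and Icos at 123 cells against 119 given by the shares, with Icos in 39.4% of Cd28+ and 37.8% of Cd28- cells. Cd28 and Ctla4 were at 115 cells against 115 given by the shares. Lag3 was found in 5.80% of Ctla4+ and 2.21% of Ctla4- cells. After thinning it was in 2.85% of Ctla4+ and 0.753% of Ctla4- cells, with overlapping intervals. The thinned draw set apart Icos with Ctla4 and Ctla4 with Havcr2, the second from 8 cells where the shares give 3.31. In Foxp3+ cells no pair stood apart.

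**Figure D5:**
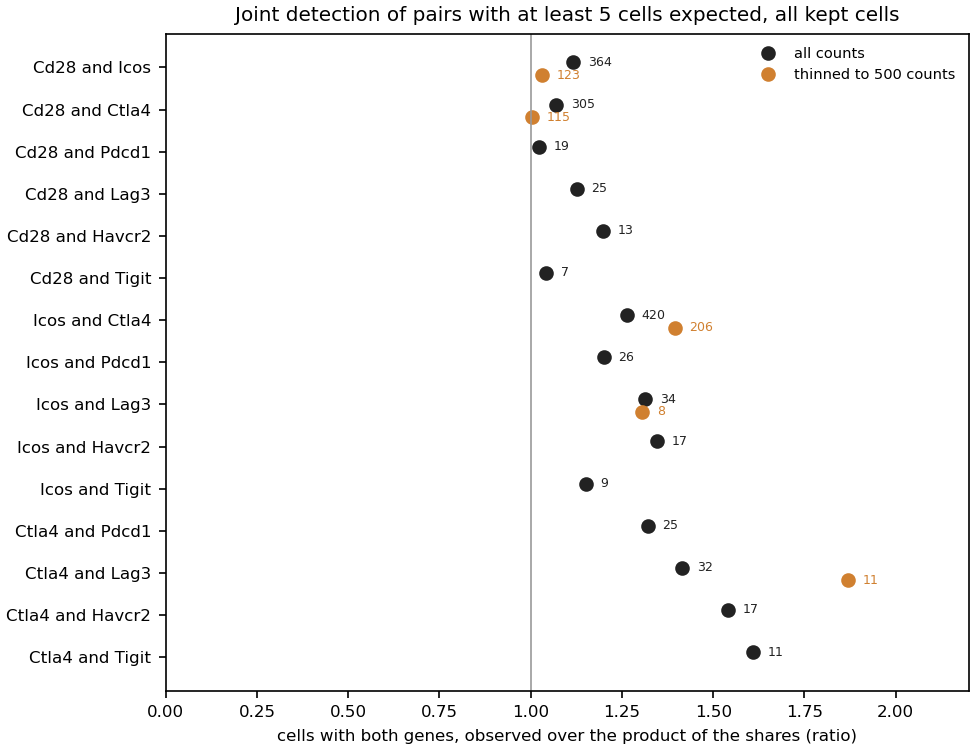
Cells with both receptors, as a ratio of the observed number to the product of the shares (x axis), for the 15 pairs of which at least 5 such cells are given by the shares. Black points use all counts and orange points, where at least 5 cells are given, 1 draw of 500 counts per cell, and the numbers are cells observed. Cd28 and Icos drop to 1.03 after thinning while Icos and Ctla4 lie at 1.39.

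Each of the 4 rarer inhibitory receptors was found in at most 4.10% of cells, so their shares give few cells with 2 of them. At least 1 of Pdcd1, Lag3, Havcr2 and Tigit was found in 16.9% of Foxp3+ and 6.82% of Foxp3- cells, and in 19.9% of Il10+ and 6.63% of Il10- cells. The share was 12.9% in Gata3+ and 6.49% in Gata3- cells, and 2.69% in cells with none of the gate genes. At least 2 of them were found in 8 of 1050 cells (0.762%), 6 of these Foxp3+ and 2 Foxp3-, and 3 or more in none. Lag3 and Havcr2 met in 3 cells where the shares give 0.86, Havcr2 and Tigit in 2 where they give 0.26, and Pdcd1 and Lag3 in 2 where they give 1.47. Pdcd1 met neither Havcr2 nor Tigit, where the shares give 0.72 and 0.446 cells, so a shortfall could not be detected at this depth. No cell called a doublet held 2 of the 4.

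Over all 7 receptors, cells held 1.75 on average and at most 5. The mean was 2.30 in Foxp3+ and 1.5 in Foxp3- cells, 2.41 in Il10+ and 1.53 in Il10- cells, and 1.92 in Gata3+ and 1.55 in Gata3- cells. Within Foxp3- cells it was 2.38 with Il10 and 1.32 without. In 1 draw of 500 counts per cell the means were 1.5 in Foxp3+ and 0.894 in Foxp3- cells, 1.56 in Il10+ and 0.927 in Il10- cells, and 1.17 in Gata3+ and 0.985 in Gata3- cells. Every cell with Lag3 had at least 1 gate gene, while 4 of 36 cells with Pdcd1, 3 of 21 with Havcr2 and 1 of 13 with Tigit had none. Among all 1050 cells, 297 (28.3%) had none. Cells with Lag3 were deeper, with a median of 1543 counts against 1229 in cells without it. Of the 36 cells with Pdcd1, 28 had Gata3 (77.8%, 60.8 to 89.9), against 53.6% of the other cells.

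Among 3284 other genes found in at least 5% of cells, those most like Icos by Pearson's r over 1050 cells were Maf, a transcription factor that promotes Il10 (0.33), Arl5a (0.29) and Gzmb, which encodes granzyme B (0.24). Those most like Ctla4 were Pim1, which encodes a kinase (0.34), Zfp36l1, which encodes an RNA-binding protein (0.33), and Arl5a (0.33). After thinning, r with Icos was 0.24 for Maf, 0.19 for Arl5a and 0.15 for Gzmb, and r with Ctla4 was 0.26 for Zfp36l1, 0.23 for Pim1 and 0.18 for Arl5a. For the other 5 receptors no gene exceeded 0.20, which in counts this sparse is no finding. Their leading genes were Anxa6, Cd44 and Klf6 for Cd28, Itm2c, Hopx and Ikzf2 for Pdcd1, Tnfrsf9, Ppp1r10 and Gzmb for Lag3, Chtop, Kat7 and Glb1 for Havcr2, and Sec24c, Pdcd5 and Dhrs7 for Tigit. Cells share library and depth in all of these values.

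Genes around the receptors were counted by list for the Foxp3 gate. Of 16 transcription factors tied to the receptors or to T cell activation, 12 had at least 50 counts, and 6 were higher and 2 lower in Foxp3+ cells, where 7.9% of all genes were higher and 7.25% lower. Prdm1, which encodes Blimp-1, was at 134 CPM in Foxp3+ and 54.1 CPM in Foxp3- cells (log2 ratio 1.31). Maf was at 1591 CPM in Foxp3+ and 1030 CPM in Foxp3- cells (0.63), and Nr4a1, an early response gene of the T cell receptor, at 666 CPM in Foxp3+ and 370 CPM in Foxp3- cells (0.85). Tcf7, a gene of naive and memory cells, was lower in Foxp3+ cells, at 21.4 against 163 CPM in Foxp3- cells (-2.93). The median of the list was 0.53, beside 0.01 for all genes. In the Il10 gate 7 of the 12 were higher and 1 lower, where 8.65% of all genes were higher and 8.25% lower, with Maf at 1813 CPM in Il10+ and 1006 CPM in Il10- cells, and within Foxp3- cells Maf was at 1994 CPM with Il10 and 835 CPM without.

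Of 27 signalling genes with enough counts, 2 were higher and none lower in Foxp3+ cells, a share near the 7.9% of all genes called higher. These were Sh2d1a, which encodes the adaptor SAP (62.2 CPM in Foxp3+, 34.8 CPM in Foxp3- cells), and Cblb, which encodes an E3 ligase that restrains Cd28 signalling (81.6 CPM in Foxp3+, 53.2 CPM in Foxp3- cells). Their log2 ratios were 0.84 for Sh2d1a (0.10 to 1.56) and 0.62 for Cblb (0.003 to 1.22), so Cblb only just met the rule. Fyn, a kinase, had a log2 ratio of 0.37 and Ppp2ca, a phosphatase subunit, 0.38, both below 1.5-fold. Of 12 other costimulatory or inhibitory receptors, 1 was called higher, again near the 7.9% of all genes. This was Slamf6, at 66.1 CPM in Foxp3+ and 32.9 CPM in Foxp3- cells (1.01). Cd5 (0.56), Vsir (0.36) and Cd2 (0.27) did not reach 1.5-fold. Slamf6 was lower with Il10, at 19.8 CPM in Il10+ and 52.4 CPM in Il10- cells (-1.40, -2.68 to -0.33).

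Of 4 ligand genes with enough counts, Ceacam1 and Lgals3 had lower summed levels in Foxp3+ cells, where 7.25% of all genes were called lower. Ceacam1, a ligand of TIM-3, was at 19.4 CPM in Foxp3+ and 219 CPM in Foxp3- cells (-3.50), and Lgals3, a lectin gene reported as a ligand of LAG-3, at 99.1 CPM in Foxp3+ and 232 CPM in Foxp3- cells (-1.23). Ceacam1 was found in 0.301% of Foxp3+ and 1.53% of Foxp3- cells. Lgals3 was found in 10.2% of Foxp3+ and 7.38% of Foxp3- cells, the opposite direction to its summed level. Both genes are also active in epithelium. Epithelial markers summed to 35.0 CPM in Foxp3+ and 2331 CPM in Foxp3- cells, where 4.60% of the cells had one. Stromal markers summed to 17.5 CPM in Foxp3+ and 555 CPM in Foxp3- cells, and myeloid markers to 85.5 CPM in Foxp3+ and 214 CPM in Foxp3- cells. These sums come from few cells, since a stromal marker was found in 2.71% of Foxp3+ and 2.65% of Foxp3- cells and a myeloid marker in 4.52% of Foxp3+ and 1.81% of Foxp3- cells. The part of such cells in the 2 ligand values was not tested. None of 7 CD4 T cell markers was called, with sums of 5147 CPM in Foxp3+ and 5207 CPM in Foxp3- cells, and 5 of 7 naive-cell genes were lower in Foxp3+ cells, where 7.25% of all genes were.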

How the data were processed

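Mouse colon CD4 T cells were profiled by inDrops, with oligo dT capture and linear amplification by in vitro transcription, per the labels' protocols. The authors deposited 1 table of counts for each gene and barcode. Per the submitters' processing notes, TopHat2 and SAMtools were used with mm10. How reads were counted, with or without strand, and whether molecular identifiers were collapsed or barcodes filtered, is not given in the sources used here, so the values are called counts. Whether the 4 samples are separate animals is not stated, and they could not be separated.

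Cells were kept with at least 500 counts, 200 genes and under 20% mitochondrial counts, which left 1549040 of 1690867 counts. Doublets were called with Scrublet in scanpy 1.11.5 (9 of 1050 cells) and kept, with their removal as an alternative. Gates were at least 1 count. Counts were summed per gate, and exact conditional (Clopper-Pearson) 95% intervals were taken with scipy 1.17.1 for log2 ratios and shares. Called genes needed at least 50 counts on both sides together, a 1.5-fold difference and an interval without 0, and gate genes were left out. A count of 0 was read as allowing up to 3 counts, or 3 cells in a share. Each cell was thinned to 500 counts in a seeded draw, and expected shares over all draws were computed from the hypergeometric distribution. The ratio and its interval were tried on simulated sums drawn from a Poisson distribution, with no spread between cells or mice. That trial therefore covers counting error only. All 1050 cells reach 500 counts, so none was left out by thinning.

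Named genes are the 7 receptors, for each receptor up to 3 genes of highest Pearson correlation, and up to 4 genes of each list (ligands, other receptors, signalling, transcription factors) whose interval leaves out 0, by the size of the Foxp3 ratio over its width; Ikzf2 and Tnfrsf4 were added after their values were seen. The receptors and lists were chosen with earlier results of these data known. Gene symbols were matched to GENCODE vM21 (25033 of 25724), and RefSeq promoter entries were used for 4 of the 7 receptors. Alternatives changed the cell filter, doublets, epithelial-marker cells, capping of counts, thinning, gates, weighting and the minimum of counts.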

Additional observations from a re-analysis of the deposited data

Results flagged for a closer look

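In the 914 barcodes under 500 counts, which are outside the comparisons, 5 receptors had more than the 3 counts that a count of 0 allows (25.9 CPM). These barcodes held a median of 86 counts and 115849 in all. Icos was at 699 CPM, Ctla4 at 682 CPM and Cd28 at 337 CPM, each lower than in the kept cells, where Icos was at 1329, Ctla4 at 1239 and Cd28 at 841 CPM. Lag3 was at 43.2 CPM from 5 counts in the low barcodes and at 34.9 CPM in kept cells. Havcr2 was at 77.7 CPM in the low barcodes and 20.7 CPM in kept cells (log2 ratio 1.91, 0.66 to 3.01), from 9 counts in 3 barcodes, 5 of them in 1 barcode. Myeloid markers were at 337 CPM in the low barcodes and 171 CPM in kept cells, and CD4 T cell markers at 2641 CPM in the low barcodes and 5187 CPM in kept cells. The part of other cell types in these values was not tested.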

How the results depend on the processing

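No paired analysis was possible because the barcodes carry no sample, and leaving out each replicate in turn was not run for the same reason. Under 12 alternatives no receptor called higher changed direction. The cause of the following changes was not tested. The number of receptors higher with Foxp3 (3) was 1 with counts capped at 1, 1 with gates set on thinned counts and 5 without a minimum of counts. With Il10 (3) it was 1 when capped. With Gata3 (1) it was 0 at 1000 counts per cell, at 200 counts without other filters, under 10% mitochondrial counts, without epithelial-marker cells, capped, under both thinnings, at a gate of 2 counts and without cells over 5000 counts, and 2 without the minimum. Within Foxp3+ cells the number higher with Il10 (0) was 2 at a gate of 2 counts and 1 without the minimum, and within Foxp3- cells that with Gata3 (0) was 1 without the minimum. For Foxp3 without a minimum it was 1 within Il10+ (0) and 4 within Il10- cells (2).

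The median log2 ratio of the receptors with Foxp3 (1.05) was 1.31 with thinned counts and 1.32 with gates set on them. With Il10 (0.99) it was 1.30 at 1000 counts, 1.15 at 200 counts, 0.84 capped, 1.42 thinned and 1.34 at a gate of 2 counts. With Gata3 (0.27) it was 0.10 as a mean over cells. Within Foxp3- cells that with Il10 (1.36) was 1.11 capped and 1.58 at a gate of 2 counts, and that with Gata3 (0.42) was 0.72 at 200 counts, 0.23 thinned and 0.21 with gates thinned. Within Foxp3+ cells that with Gata3 (-0.11) was 0.13 thinned. Within Il10- cells that with Foxp3 (1.31) was 0.98 capped and 1.51 with gates thinned. Of 21 pairs of receptor and gate, the shares stood apart in 9, and in as few as 5 over 10 further thinning draws chosen after the data were seen. Of 21 receptor pairs 3 stood apart, and as few as 1 in those draws. The rarer receptors had 21 to 54 counts each, which limits every statement on them.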
